A study of Mus musculus with 8 samples.

Results

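Of 28723 cells from chimeric mouse embryos, 139 carried 1 of 4 labels for haemogenic yolk sac cells and early blood progenitors, and all 139 were WT host cells. They were chosen by the combined cell type annotation that the authors deposited: 51 cells were yolk sac (YS) endothelium, 61 were blood progenitors 1, 16 were erythro-myeloid progenitors (EMP), and 11 were haematoendothelial progenitors. None of the 8566 Eomes-KO cells in the table had any of these labels. The table holds fewer cells of both genotypes than the study says it retained, and the others were not analysed here. The table gives labels, stages and quality measures per cell and no gene counts, so the labels could not be checked against Kdr, Etv2, Tal1, Runx1 or Lyve1.

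The first blood of the mouse forms in the blood islands of the yolk sac, where extraembryonic mesoderm from the posterior primitive streak gives rise to endothelium and primitive erythroid cells side by side. Haematoendothelial progenitors are mesodermal cells that can still take either path. Part of the yolk sac endothelium is haemogenic: its cells round up and leave the vessel wall as blood cells, and EMP, the definitive progenitors of red cells, megakaryocytes and myeloid cells, arise in this way. Blood progenitors 1 and 2 are successive atlas labels between this mesoderm and erythroid cells. Eomes encodes a T-box transcription factor made in the early primitive streak.

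Eomes-KO embryonic stem cells (ESC) carrying the red fluorescent protein tdTomato had been injected into WT C57BL/6 blastocysts, and pools of about 4 chimeras were collected at E8.5 and sorted. tdTomato+ cells were the Eomes-KO cells, which came from 4 independent clones of 1 parental line with a deletion of the gene body of Eomes, and tdTomato- cells were the WT host cells of the same pools. Each genotype gave 4 libraries. The Eomes-KO libraries held 602, 1153, 3346 and 3465 cells and the WT host libraries 2414, 3791, 5819 and 8133, and a library is named here by its number of cells. No library of injected WT ESC was analysed here, so loss of Eomes cannot be told apart from ESC origin. The tissue was labelled as whole embryo, and how much yolk sac each pool kept is not given in the sources used here.

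Median UMIs per cell, the number of distinct RNA molecules counted, ran from 8901 to 32559.5 in the Eomes-KO libraries and from 5124 to 11002 in the WT host libraries. ESC hardly form extraembryonic endoderm or ectoderm, so shares were taken of the epiblast-derived cells, which numbered 8561 in the Eomes-KO libraries and 19284 in the WT host libraries. Extraembryonic endoderm and ectoderm cells made up 0.787%, 0.870% and 1.91% of the 2414-, 3791- and 8133-cell libraries and 11.4% of the 5819-cell library, which stands apart in this respect. In all, 80 cell barcodes occurred in 2 libraries, and 0 of them belonged to a cell of the 4 labels.

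The 4 labels were carried by 0.668%, 0.160%, 1.09% and 0.765% of the epiblast-derived cells in the 2414-, 3791-, 5819- and 8133-cell WT host libraries (mean 0.670% ± 0.384, SD, n = 4). The lowest of these shares rests on 6 cells and the highest on 56. In the 4 Eomes-KO libraries the share was 0%, and 0 of 8561 cells allow a share of up to 0.0350%. The pooled WT host share was 20.6-fold this limit of 3 cells over all Eomes-KO libraries. The ratio takes the WT host share as it stands, without its spread between libraries. Since the 4 labels were put together with these results known, their joint share is given without a test.

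YS endothelium, the vessel lining of the yolk sac, numbered 5, 3, 29 and 14 cells in the 2414-, 3791-, 5819- and 8133-cell WT host libraries. These were 0.209%, 0.0798%, 0.563% and 0.175% of epiblast-derived cells (mean 0.257% ± 0.211, SD, n = 4). The 5819-cell library was well above the others and held 56.9% of all YS endothelium cells, and it was also the library with 11.4% of non-epiblast cells. Without it the mean was 0.155% ± 0.0669 (SD, n = 3). The part of that difference in the result was not tested.

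**Figure D1:**
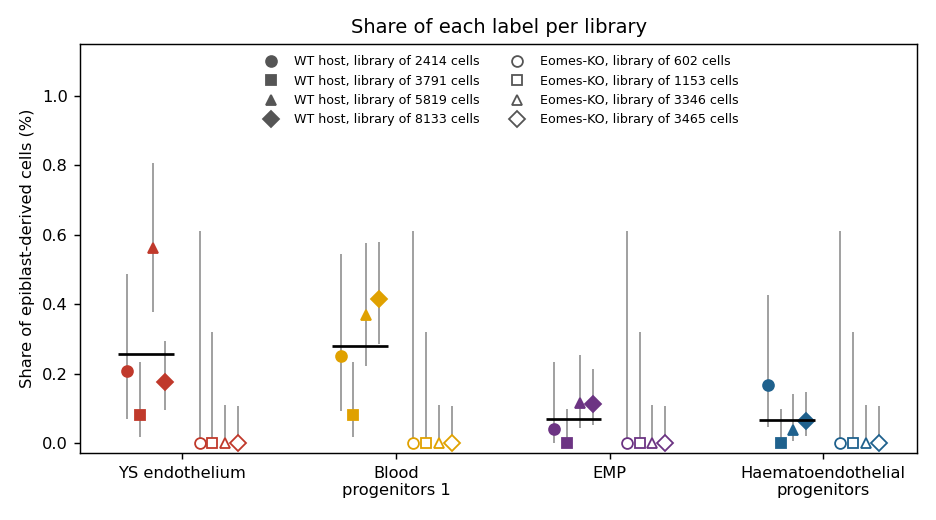
Share of epiblast-derived cells with each of the 4 labels, in percent, for the 4 WT host libraries (filled) and the 4 Eomes-KO libraries (open), with 1 marker shape per library as in the key. Vertical lines are exact 95% binomial intervals, which cover counting error only, and short horizontal lines are WT host means. All Eomes-KO libraries are at 0, and the intervals of the 602- and 1153-cell libraries reach above most WT host values.

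Blood progenitors 1, the earlier of the blood progenitor labels, were spread in another way. The 2414-, 3791-, 5819- and 8133-cell libraries held 6, 3, 19 and 33 of these cells, or 0.251%, 0.0798%, 0.369% and 0.414% (mean 0.278% ± 0.149, SD, n = 4). Here the 8133-cell library was the highest and held 54.1% of the cells. Blood progenitors 1 therefore outnumbered YS endothelium in the 8133-cell library and not in the 5819-cell library.

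EMP and haematoendothelial progenitors were seen in 3 of 4 WT host libraries each, and the 3791-cell library held neither. EMP numbered 1, 0, 6 and 9 cells (mean 0.0678% ± 0.0568, SD, n = 4). Haematoendothelial progenitors numbered 4, 0, 2 and 5 cells (mean 0.0671% ± 0.0714, SD, n = 4). The upper limit that a count of 0 allows in the 3791-cell library is 0.0798%, which lies above both means, so their absence from that library was not detectable as a difference at this number of cells.

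Cell numbers per library were compared between genotypes by the quasi-likelihood test of edgeR, where a library is the replicate. Among all cell types with at least 10 cells it called 48.5% of 33 types lower in Eomes-KO (Benjamini-Hochberg adjusted p under 0.05), and 2 of the 4 labels were among them. That share is close to the share of all types, so the count of calls is nothing particular to these labels. Blood progenitors 1 were at least 9.03-fold lower than in WT host (adjusted p = 0.0028) and YS endothelium at least 7.55-fold lower (adjusted p = 0.0050), with the floor set at 3 cells over all Eomes-KO libraries. Without the 5819-cell library the bound for YS endothelium was 4.44-fold. EMP were at least 2.37-fold lower and haematoendothelial progenitors at least 1.63-fold lower, and neither passed the test (adjusted p = 0.078 and 0.118). Without the 3791-cell WT host library both passed (adjusted p = 0.0099 and 0.025 by the same edgeR test). That library held 0 cells of either label, so leaving it out raises the WT host share, and these passes add no evidence of a difference. Without any other single library, neither label passed where it could be fitted. The Eomes-KO count was 0 for all 4 labels. At the pooled WT host share the 8561 Eomes-KO cells would hold 22.6 YS endothelium cells and 27.1 blood progenitors 1. For EMP and haematoendothelial progenitors this would be 7.10 and 4.88 cells. A count of 0 was not particular to these labels. Blood progenitors 2 (408 WT host cells), YS mesothelium (87) and definitive endoderm (64) had 0 Eomes-KO cells too. Of erythroid cells, the 1153-cell Eomes-KO library held 1 and the others 0, against 4069 in WT host.

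The combined labels join annotations of the same cells by the original gastrulation atlas and by its extended version, and the 4 labels come from them by different routes. All 51 YS endothelium cells and all 16 EMP had the original label endothelium, and the extended label gave them their finer name. All 11 haematoendothelial progenitors had that name in both atlases. Blood progenitors 1 took their name from the original atlas, and of these 61 cells 49 had the extended label EMP, 11 had the extended label haematoendothelial progenitors, and 1 had the extended label blood progenitors. The combined label EMP therefore covers few of the cells that the extended atlas calls EMP.

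By the extended atlas alone there were 103 EMP, all of them WT host cells, with 11, 7, 33 and 52 in the 2414-, 3791-, 5819- and 8133-cell libraries. In the combined annotation 49 of them (47.6%) were blood progenitors 1, 38 (36.9%) were blood progenitors 2 and 16 (15.5%) were EMP. The same edgeR test over extended labels called 60.3% of 68 labels lower in Eomes-KO, and EMP passed it (adjusted p = 2.4e-06). The 27 WT host cells with the extended label haematoendothelial progenitors were split into 11 of that combined label, 11 blood progenitors 1, 4 blood progenitors 2 and 1 pharyngeal mesoderm cell. That extended label passed as well (adjusted p = 0.012), and 0 Eomes-KO cells had it. The extended fits were added after the data were seen.

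The name haematoendothelial progenitors meant different cells in the 2 atlases. In the original atlas labels it was given to 464 WT host and 215 Eomes-KO cells, and its share of epiblast-derived cells was not called different (a log2 fold change of -0.35, SE 0.65, adjusted p = 0.64 by edgeR over 29 original labels). Only 11 of the 464 WT host cells and 0 of the 215 Eomes-KO cells kept that name in the combined annotation. The original label endothelium, in contrast, was given to 222 WT host cells and 3 Eomes-KO cells (log2 fold change -4.94, SE 0.82, adjusted p = 7.0e-05 by edgeR, in a fit that called 51.7% of original labels lower). Of those 222 cells, 67 (30.2%) became YS endothelium or EMP.

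Cells with either original label were then followed to their combined label. In WT host, 686 such cells were found, of which 78 became YS endothelium, EMP or haematoendothelial progenitors, which is 11.4% of the pooled cells. The exact 95% interval of 9.09% to 14.0% covers counting error only and not the spread between libraries. By library this share was 11.2%, 4.11%, 15.04% and 10.1% in the 2414-, 3791-, 5819- and 8133-cell libraries (mean 10.1% ± 4.53, SD, n = 4). Among Eomes-KO cells, 0 of 218 such cells did, which allows a share of up to 1.38%. The mix of the original labels differed, however, since 215 of the 218 Eomes-KO cells had the label haematoendothelial progenitors. Within that label, 11 of 464 WT host cells (2.37%, exact 95% interval 1.19% to 4.202%) became haematoendothelial progenitors of the combined annotation. Over the WT host libraries this share was 2.66% ± 2.92 (SD, n = 4). The 0 of 215 Eomes-KO cells allow up to 1.40%, so a difference was not detectable at this number of cells. The 67 YS endothelium and EMP cells came from the original label endothelium, and the 3 Eomes-KO cells with it set no useful limit.

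The Eomes-KO cells with these original labels lay elsewhere among the endothelial labels. Allantois endothelium, the vessels of the structure that builds the umbilical cord, took up 83.3%, 81.3% and 83.0% of them in the 1153-, 3346- and 3465-cell libraries, and the 602-cell library had 0 such cells. In WT host it took up 36.0%, 45.2%, 34.1% and 35.3%. The groups did not overlap, with a difference of 44.9 percentage points (82.5% ± 1.12, SD, n = 3, against 37.6% ± 5.10, SD, n = 4). Within the original label haematoendothelial progenitors alone, where the mix of labels plays no part, the difference was 29.3 points (83.3% ± 0.556, SD, n = 3, against 54.0% ± 4.22, SD, n = 4), again without overlap. For both differences the two-sided exact permutation test gave p = 0.0571, which is the smallest that 3 against 4 libraries allow, so it could not pass 0.05. Of the 218 Eomes-KO cells, 22 were embryo proper endothelium, 9 were venous endothelium, 7 were allantois and 1 was lateral plate mesoderm, where WT host had 177 embryo proper and 165 venous endothelium cells among 686. As a share of all epiblast-derived cells, allantois endothelium was not called different (log2 fold change 0.281, SE 0.631, adjusted p = 0.705 by edgeR). The same fit, which called 48.5% of 33 types lower, called venous and embryo proper endothelium lower. Their log2 fold changes were -3.12 and -1.95 (adjusted p = 0.0011 and 0.013 by edgeR).

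**Figure D2:**
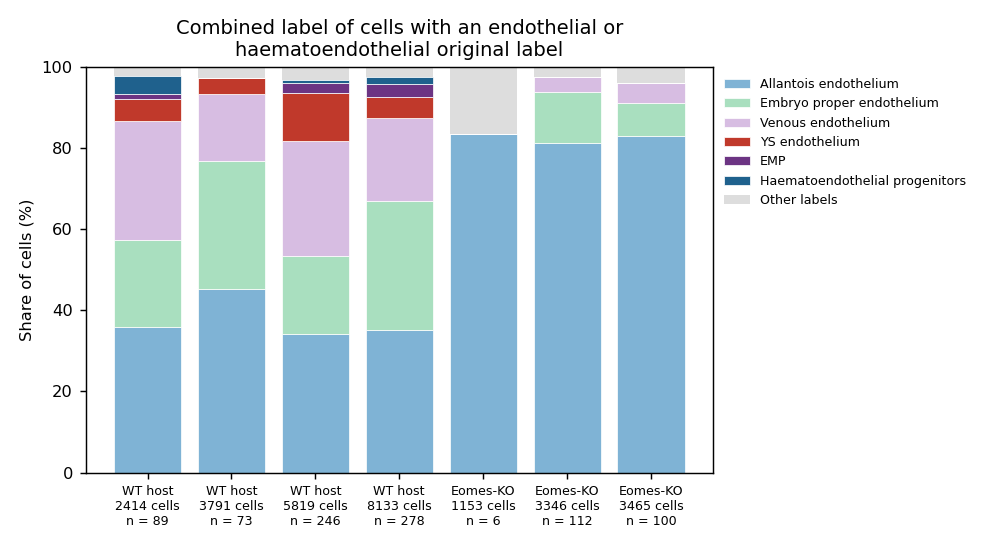
Combined label of cells whose original atlas label was endothelium or haematoendothelial progenitors, as percent of such cells in each library, with their number (n) under each bar. YS endothelium, EMP and haematoendothelial progenitors appear in WT host bars alone, and allantois endothelium fills 81.3% to 83.3% of the Eomes-KO bars. The Eomes-KO library of 602 cells had no such cell and is left out, and that of 1153 cells had 6.

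The atlas stage transferred to each cell separated the 4 labels. Haematoendothelial progenitors mapped to the earliest stages, with 4 cells at E7.5, 4 at E7.75, 3 at E8.0 and 0 later (mean 7.73). EMP followed, with 1 cell at E7.75, 7 at E8.0, 8 at E8.25 and 0 at E8.5 (mean 8.11). Blood progenitors 1 spanned all 5 stages, with 1, 7, 21, 11 and 21 cells from E7.5 to E8.5 (mean 8.18). YS endothelium mapped to the latest stages, with 1 cell at E8.0, 31 at E8.25 and 19 at E8.5 (mean 8.34). The 19145 other epiblast-derived WT host cells had a mean of 8.22. Labels, stages and scores all come from the same nearest atlas cells of a cell, so stage is not independent of the label.

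**Figure D3:**
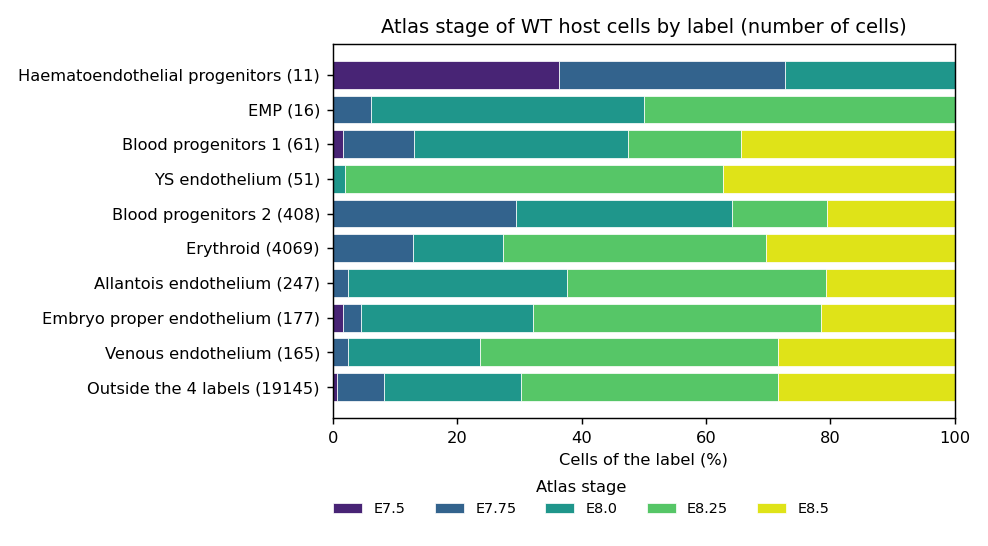
Atlas stage of WT host cells with each of the 4 labels, with related labels and with all other epiblast-derived cells, as percent of the cells of each label (number of cells in brackets). Haematoendothelial progenitors have 0 cells at E8.25 or E8.5, and YS endothelium has 1 of 51 cells before E8.25.

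The share of cells mapped to a stage before E8.25 was 100% for haematoendothelial progenitors, 50% for EMP, 47.5% for blood progenitors 1 and 1.96% for YS endothelium. Allantois, embryo proper and venous endothelium lay between, at 37.7%, 32.2% and 23.6%, endocardium had 0 of 9 cells before E8.25, and blood progenitors 2 were at 64.2%. Over all epiblast-derived cells, 44.3% of Eomes-KO cells mapped before E8.25, against 30.3% of the WT host cells outside the 4 labels. By library this was 51.1%, 53.2%, 35.5% and 48.6% in the 602-, 1153-, 3346- and 3465-cell Eomes-KO libraries. In the 2414-, 3791-, 5819- and 8133-cell WT host libraries it was 32.1%, 13.9%, 39.2% and 31.9%. The genotypes therefore overlapped, and the difference was not tested.

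Within each WT host library, YS endothelium was later than all other epiblast-derived cells by 0.148 ± 0.0376 embryonic days (SD, n = 4 libraries), and this held in 4 of 4 libraries. It was later than allantois endothelium by 0.169 ± 0.0833, than embryo proper endothelium by 0.174 ± 0.0340 and than venous endothelium by 0.122 ± 0.0751, again in 4 of 4 libraries each. It was not later than endocardium, which had 9 WT host cells. Their mean stages were 8.5, 8.5, 8.42 and 8.42 in the 2414-, 3791-, 5819- and 8133-cell libraries, against 8.3, 8.5, 8.31 and 8.375 for YS endothelium. Haematoendothelial progenitors were earlier than all other cells by 0.377 and 0.523 days in the libraries that held at least 3 of them. For blood progenitors 1 the mean difference was -0.0652 ± 0.107 and was negative in 3 of 4 libraries, which is within its spread.

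Blood progenitors 1 were not of 1 stage. The 49 cells that the extended atlas called EMP had a mean stage of 8.27, with 17 cells at E8.0, 11 at E8.25 and 21 at E8.5. The 11 cells that it called haematoendothelial progenitors had a mean of 7.80, with 1 cell at E7.5, 7 at E7.75 and 3 at E8.0. So the stage of a blood progenitor 1 cell went with its extended label, and the early group lay close to the mean of 7.73 of the combined haematoendothelial progenitors. Among extended EMP, the cells named blood progenitors 2 had a mean stage of 8.40, those named blood progenitors 1 of 8.27 and those named EMP of 8.11.

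Compared with blood progenitors 2, the label that follows them in the atlas, blood progenitors 1 mapped to a later stage by 0.105 ± 0.104 days (SD, n = 4), with a positive difference in 4 of 4 libraries and the lowest at 0.0027. Blood progenitors 2 had 0 cells at E7.5, 120 at E7.75, 142 at E8.0, 62 at E8.25 and 84 at E8.5. The mean atlas stages thus did not follow the order of the 2 names, but the mean difference was about the size of its spread. Its lowest value came from the 3791-cell library, which held 3 blood progenitors 1.

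The deposited score of a label is the fraction of a cell's 15 nearest neighbours in the atlas with that label. For YS endothelium the original label endothelium had a score of 1 in 51 of 51 cells, and the extended label had a median of 0.800, with 3 cells under 0.5. For blood progenitors 1 the original label had a median of 0.800 with 2 cells under 0.5, and the extended label was surer, with a median of 0.933 and 28 cells at 1. EMP had medians of 0.833 for the original and 0.733 for the extended label, and 2 of 16 cells were under 0.5 in the latter. Haematoendothelial progenitors had medians of 0.800 and 0.667, with 2 of 11 cells under 0.5 in the latter. Median stage scores were 0.6 for YS endothelium, 0.533 for blood progenitors 1, 0.467 for EMP and 0.4 for haematoendothelial progenitors, so the stage of the last 2 labels was the least certain.

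Within libraries, the original label score of blood progenitors 1 was lower than that of blood progenitors 2 by 0.117 ± 0.0638 (SD, n = 4) in 4 of 4 libraries. Their extended label score was above that of YS endothelium by 0.150 ± 0.104, also in 4 of 4 libraries. YS endothelium and venous endothelium had extended label scores whose difference of 0.0583 ± 0.117 was within its spread.

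The single nearest atlas cell of each cell gives its place in the atlas layout. The 139 cells had 121 distinct nearest atlas cells. On these same atlas cells lay 12 other WT host cells, of which 8 were venous endothelium, 2 blood progenitors 2, 1 mesenchyme and 1 paraxial mesoderm, and 0 Eomes-KO cells. Of the 8 venous endothelium cells, 7 shared their atlas cell with YS endothelium and 1 with EMP.

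**Figure D4:**
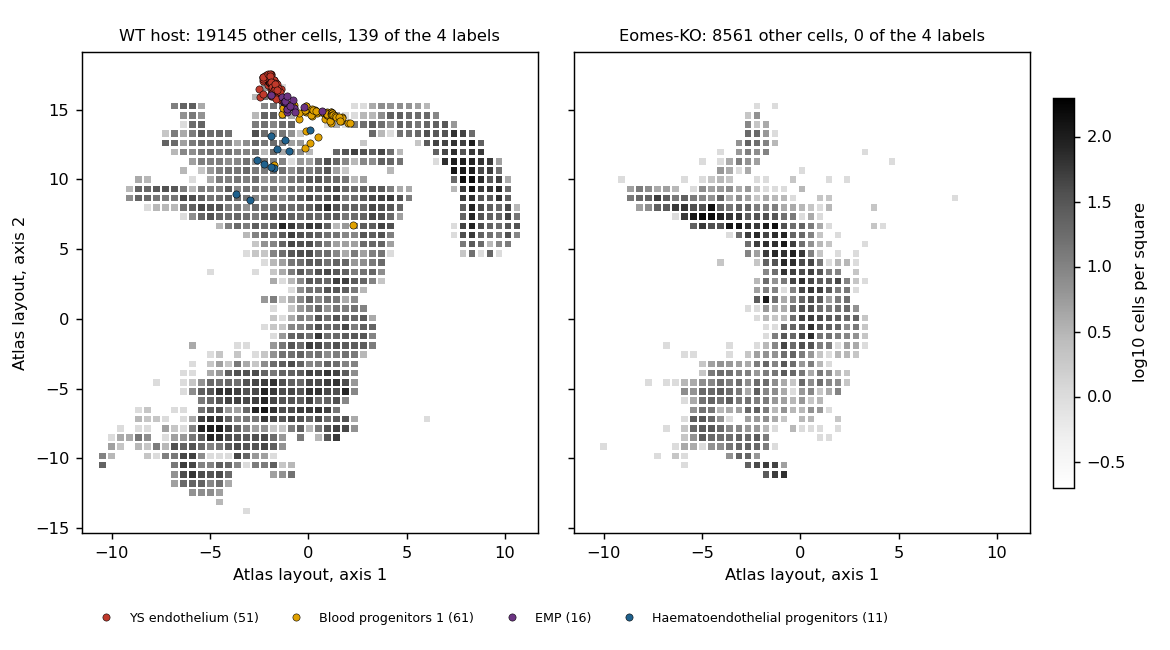
Atlas layout of WT host cells (left) and Eomes-KO cells (right), each placed at its nearest atlas cell; axes are in arbitrary layout units, grey squares give the log10 number of other epiblast-derived cells, and coloured points are the 139 cells of the 4 labels. The 51 YS endothelium cells lie above the highest Eomes-KO cell on axis 2, with EMP and blood progenitors 1 between them and the arc of blood progenitors 2 and erythroid cells on the right.

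On the second axis of the layout, YS endothelium lay between 15.7 and 17.6, and 51 of 51 cells were above the highest of the 8561 Eomes-KO cells, at 15.4. Venous endothelium of WT host reached 17.0, with 86 of 165 cells above that level. EMP lay between 14.8 and 16.1, with 8 of 16 above it, while haematoendothelial progenitors lay lower, between 8.495 and 13.5, at a median of 11.4. Allantois endothelium had a median of 12.9 in WT host and 12.5 in Eomes-KO. On the first axis, the medians went from -1.90 for YS endothelium over -1.07 for EMP to 0.899 for blood progenitors 1, 4.60 for blood progenitors 2 and 8.25 for erythroid cells. Distances in such a layout are not to scale, and a position comes from the same nearest atlas cells as the label, so these positions are a description only.

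YS endothelium cells held fewer UMIs than other cells of their library. Their median was 4297, 5108, 7445 and 4052 UMIs in the 2414-, 3791-, 5819- and 8133-cell libraries, where the epiblast-derived cells outside the 4 labels had 8359, 10739, 10832 and 5108. The ratio to all other epiblast-derived cells was 0.604-fold (log2 -0.73 ± 0.35, SD, n = 4 libraries), lower in 4 of 4 libraries. The median number of genes was 0.759-fold, also lower in 4 of 4. The exact sign-flip test over 4 libraries gave p = 0.125, two-sided, which is the smallest it allows, and 0.455 after Benjamini-Hochberg adjustment over 40 tests of 4 labels and 10 measures.

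The low UMI number was also seen against 3 other endothelial labels. It was 0.567-fold that of allantois endothelium, 0.607-fold that of embryo proper endothelium and 0.634-fold that of venous endothelium, lower in 4 of 4 libraries each. It was not seen against endocardium, the lining of the heart, whose 9 WT host cells had medians of 6562, 5135, 6540 and 3615 UMIs in the 2414-, 3791-, 5819- and 8133-cell libraries, lower than YS endothelium in 2 of them. The 8133-cell library, which was the shallowest, had the smallest difference from allantois endothelium, with 4052 against 5202.5 UMIs. The authors kept no cell under a minimum of UMIs and genes, and the lowest YS endothelium cell had 3416 UMIs and 1581 genes. How many YS endothelium cells lay under that minimum was not tested. The median over all cells of each Eomes-KO library was 8901 UMIs or more. These libraries held no YS endothelium cell, so the UMI number of that label in them is not known.

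**Figure D5:**
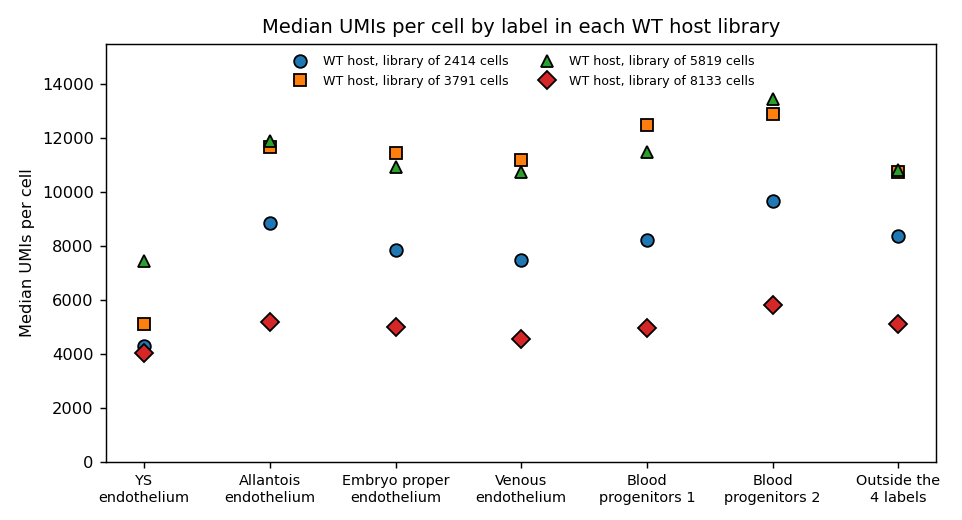
Median UMIs per cell by label in each of the 4 WT host libraries (1 marker shape and colour per library). Of the labels drawn, YS endothelium is the lowest in each library, from 4052 to 7445, and blood progenitors 1 lie near the cells outside the 4 labels.

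Blood progenitors 1 did not share this. Their medians were 8232, 12499, 11475 and 4958 UMIs in the 2414-, 3791-, 5819- and 8133-cell libraries, 1.04-fold those of all other epiblast-derived cells (log2 0.06 ± 0.12, SD, n = 4), higher in 2 and lower in 2 libraries. Against blood progenitors 2 they were 0.879-fold, lower in 4 of 4 libraries. EMP were at 1.07-fold and haematoendothelial progenitors at 0.911-fold of all other cells in the 2 libraries that held at least 3 of each, where no exact p under 0.5 is possible.

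The ribosomal share of UMIs differed in direction between blood progenitors 1 and YS endothelium. It was higher in blood progenitors 1 than in all other epiblast-derived cells by 1.94 ± 0.919 percentage points (SD, n = 4), in 4 of 4 libraries. Blood progenitors 1 were also above YS endothelium by 3.91 ± 3.01 points in 4 of 4. Related blood labels shared the first difference. Medians in the 2414-, 3791-, 5819- and 8133-cell libraries were 26.405%, 28.42%, 26.28% and 26.365% for blood progenitors 2. Erythroid cells had 27.225%, 27.77%, 26.76% and 26.24%, and epiblast-derived cells outside the 4 labels 26.07%, 27.05%, 25.29% and 24.98%. Blood progenitors 1 were above blood progenitors 2 by 0.926 ± 0.833 points, in 3 of 4 libraries. For YS endothelium against all other cells the difference was -1.97 ± 2.36 points and negative in 3 of 4 libraries. Mitochondrial shares of YS endothelium were above those of allantois endothelium by 0.416 ± 0.261 points in 4 of 4 libraries, with a median of 2.06% over the 51 cells. The difference was 0.380 ± 0.372 points from embryo proper endothelium and 0.37 ± 0.33 from venous endothelium. From all other epiblast-derived cells it was 0.294 ± 0.354, and each of these was positive in 3 of 4 libraries.

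Doublet scores, which rate how much a cell looks like 2 cells read as 1, were low for YS endothelium. Its median was 0.1, the difference from all other epiblast-derived cells was -0.0788 ± 0.0448 (SD, n = 4) and negative in 4 of 4 libraries, and 46 of 51 cells were under 0.25. The medians were 0.140 for blood progenitors 1 (43 of 61 cells under 0.25), 0.155 for EMP (11 of 16) and 0.200 for haematoendothelial progenitors (6 of 11). Among the other WT host cells 68.0% were under 0.25. A low score was not particular to YS endothelium, since WT host medians were 0.09 for erythroid cells and 0.13 for blood progenitors 2. In the 8133-cell library YS endothelium, at 0.155, was above blood progenitors 1, at 0.12.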

How the data were processed

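Reads had been aligned by the authors to mm10 plus tdTomato and UMIs counted (Cell Ranger 6.0.1). The authors filtered cells on UMIs, genes, mitochondrial and ribosomal content, and removed cells with a doublet score above 0.5. They transferred labels and stages from the 15 nearest atlas cells. The deposited table holds, per cell, raw UMI and gene counts, the mitochondrial and ribosomal percent of UMIs, a doublet score, and label scores, each a fraction of nearest atlas cells. Genotype was taken from tdTomato status. Library names match no pool, so libraries were not paired.

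Numbers of cells by label entered edgeR's quasi-likelihood test (version 4.0.16, R 4.3.3) with genotype as the only term. The test was also run on simulated data. No label was made absent from a genotype there, so that case was not tried. Epiblast-derived cells set the library size, labels needed 10 cells, and adjusted p (Benjamini-Hochberg) had to be under 0.05. The study had the pool as a further term. The 4 libraries of a genotype are pools from separate clones. Per-cell measures were compared within libraries of at least 3 cells of the label by exact sign flips, shares by exact permutation (scipy 1.17.1, two-sided). Binomial intervals are exact (Clopper-Pearson, 95%) and, like floors of 3 cells, cover counting error only. DESeq2 1.42.0 and limma 3.58.1 (0.5 cells added) were alternatives. Cell types are named if they are 1 of the 4 labels, hold atlas labels of these cells or at least 5 cells with such an atlas label, or are a related blood or endothelial label. Pharyngeal, paraxial and lateral plate mesoderm, mesenchyme, YS mesothelium and definitive endoderm were named after their counts were seen. The 4 labels and the lists were chosen with earlier results of these data known.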

Additional observations from a re-analysis of the deposited data

Results flagged for a closer look

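In 21 sets of 4 WT host values, 2 held a library far from the other 3 by Dixon's test at the 95% level, where chance gives about 1 in 20. The median mitochondrial share of blood progenitors 1 was 1.115% of UMIs in the 2414-cell library, which had 6 such cells, and 2.01% to 2.10% in the other 3 libraries. Allantois endothelium took up 45.2% of the cells with an original label of endothelium or haematoendothelial progenitors in the 3791-cell library, against 34.1% to 36.0% in the other 3. That library also had the lowest joint share of the 4 labels, at 0.160%, and was still below each Eomes-KO library in its allantois endothelium share.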

How the results depend on the processing

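No paired analysis was possible because the library names in the table match no pool number of the labels. YS endothelium and blood progenitors 1 passed under each alternative that could be fitted, with adjusted p up to 0.0071 for both, and without 1 library from 9.8e-05 to 0.0165 and from 2.8e-05 to 0.0108. YS endothelium had too few cells at 10000 UMIs or more, and EMP and haematoendothelial progenitors under several filters, to be fitted. EMP passed with DESeq2 median-ratio size factors (adjusted p = 0.0096), with no filter on rare types (0.032), with erythroid cells left out of the denominator (0.047) and by extended labels (2.4e-06), but not with TMM (0.053) or limma (0.317), and without 1 library its p ran from 0.0099 to 0.148. Haematoendothelial progenitors passed by extended labels (0.012), and without 1 library their p ran from 0.025 to 0.203. The types called lower were 13 to 18 over the alternatives, against 16.

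The WT host minus Eomes-KO joint share was 0.670 percentage points, 0.531 to 0.840 without 1 library, 2.07 by the original labels of these cells and 3.15 by their extended labels, since both take in more cells. With at least 10000 UMIs, 1 library was left for YS endothelium and for EMP. There the log2 ratio to all other cells turned to 0.0760 for UMIs and 0.0775 for genes of YS endothelium, and -0.015 for UMIs of EMP. That filter cuts both sides on UMIs itself, so it cannot test a difference in UMIs. It kept 8 of 51 YS endothelium cells. With doublet scores under 0.25 the log2 ratio turned to 0.0912 for UMIs and 0.0748 for genes of haematoendothelial progenitors, again in 1 library. The log2 ratio of genes of blood progenitors 1 was 0.02, and -0.0016 to 0.038 without 1 library. The label score of EMP differed from all other cells by -0.167, and by 0 with at least 10000 UMIs, in 1 library. The other directions of UMIs, genes, stage and label score were kept. Cell number is the limit: 11 to 61 cells per label, and a floor of 0.499% in the 602-cell library.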
